A study of Homo sapiens with 12 samples.

Results

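BXPC3, an established epithelial line of human pancreatic ductal adenocarcinoma, was cultured as embedded cells in gelatin methacryloyl (GelMA) or in collagen, and its messenger RNA was compared between these 2 gels. GelMA is gelatin, that is denatured collagen, carrying methacryloyl groups through which it can be cross-linked. The groups were 5% GelMA, 7.5% GelMA and collagen, with 2 libraries each, so that 4 GelMA libraries stood against 2 collagen libraries. They belong to a series of 12 libraries, in which PANC1, another pancreatic cancer line, was treated in the same way. All of the cells came from ATCC stocks and were grown in high glucose DMEM with foetal bovine serum, penicillin and streptomycin. RNA was purified on RNeasy columns and libraries were made by poly-A capture. The sources used here do not give gel stiffness, cell density or days in culture. They also do not say that replicates were separate cultures, so each p-value reflects scatter among libraries that may be technical replicates. A gene was kept when it reached 1 RPKM (a read density scaled to gene length and library size) in at least 2 of the 6 BXPC3 libraries. This kept 14343 of 16299 genes, and 12300 of those kept were protein-coding. The genes just inside the filter were ENSG00000250397 and ENSG00000256673, whose second highest library was at 1.00069 RPKM, and those just outside were IQCH and ZNF594-DT at 0.99928 RPKM.

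A gel surrounds cells with both ligand and mechanical resistance. Collagen fibres are bound through collagen-binding integrins, while gelatin exposes the peptide motifs recognised by other integrins, and the tension that cells build on either is read out through actin, serum response factor (SRF) and the YAP coactivators. A gel also sets how oxygen and nutrients reach the cells, and epithelial tumour cells answer shortage with the hypoxia response, with glucose-regulated genes such as TXNIP and with changes in protein synthesis. Pancreatic cancer cells of the epithelial kind additionally secrete mucins and trefoil peptides, the products of a gut-like secretory programme.

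The libraries carried the profile of their label. All 12 epithelial markers, such as EPCAM, CDH1 and KRT8, were above 1 RPKM in each library, and their summed level was 8420 to 9444 RPKM in GelMA and 8017 to 8150 RPKM in collagen. Markers of other cells were low but present. Fibroblast and stellate markers (4 of 12 in the table, COL1A1 and COL3A1 leading) summed to 21.3 to 23.3 RPKM in GelMA and 24.9 to 25 RPKM in collagen. Endothelial markers (4 of 8 in the table, VWF and PECAM1 leading) summed to 2.62 to 3.82 RPKM in GelMA and 3.34 to 4.22 RPKM in collagen, and the defining receptor KDR was at 0.0222 to 0.027 RPKM in the 6 libraries. Immune markers, mostly CD14, summed to 19.6 to 26.2 RPKM in GelMA and 17.9 to 19.5 RPKM in collagen. Of 10 acinar and endocrine markers 2 were in the table, and their sum was 8.2 to 10.4 RPKM in GelMA and 3.08 to 4.08 RPKM in collagen. Most of it was PRSS1, trypsinogen of acinar cells, which has near copies among the trypsinogens, at 9.79, 8.30, 7.28 and 8.67 RPKM in GelMA, against 3.29 and 2.33 RPKM in collagen. All GelMA libraries lay above both collagen libraries, with a difference of 1.61 ± 0.62 that did not pass in the fit shared with PANC1 (adjusted p = 0.062) and passed in the 6 BXPC3 libraries alone (adjusted p = 0.00077) and on the log2(RPKM + 1) scale (1.33, adjusted p = 3.5e-05). The part of acinar-type RNA in the results below was not tested. Replicates differed by a standard deviation of 0.211 log2 units in 5% GelMA, 0.18 in 7.5% GelMA and 0.252 in collagen. The leading principal component of the 6 libraries held 65.6% of the variance and placed the GelMA libraries between -16.3 and -12.3, against 23.8 and 33.9 for collagen replicates 1 and 2. Collagen replicate 2 thus lay farther from GelMA than replicate 1, and many results that rest on it are given with and without it. Not all are: rises in the actin, MAPK, G1/S and nucleotide synthesis lists were also fewer without it. In bulk RNA, fewer cells of a kind and less RNA per cell cannot be told apart.

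Changes between the gels were many and mostly small. Each gene was tested with limma, called at an adjusted p under 0.05, and its difference is GelMA minus collagen in log2 RPKM with its standard error (SE). Of 14343 genes, 5526 were called (38.5%), 2998 higher in GelMA (20.9%) and 2528 lower (17.6%). Called genes had a median absolute difference of 0.30, and the median of all genes was 0.01. At least 2-fold changes were found in 139 genes higher in GelMA (0.969%) and 141 lower (0.983%). The GelMA and collagen libraries did not overlap in 7824 genes (54.5%), 4087 with all GelMA libraries above and 3737 with all below. The share called increased with level over 5 equal bins of genes, from 25% in the least abundant to 51% in the most abundant. Without collagen replicate 2 the count was 3473, 1890 higher and 1583 lower. Collagen replicate 2 was above replicate 1 in 130 of the 141 genes that fell at least 2-fold, compared with 47.3% of all genes tested, and below it in 91 of the 139 that rose at least 2-fold.

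**Figure D1:**
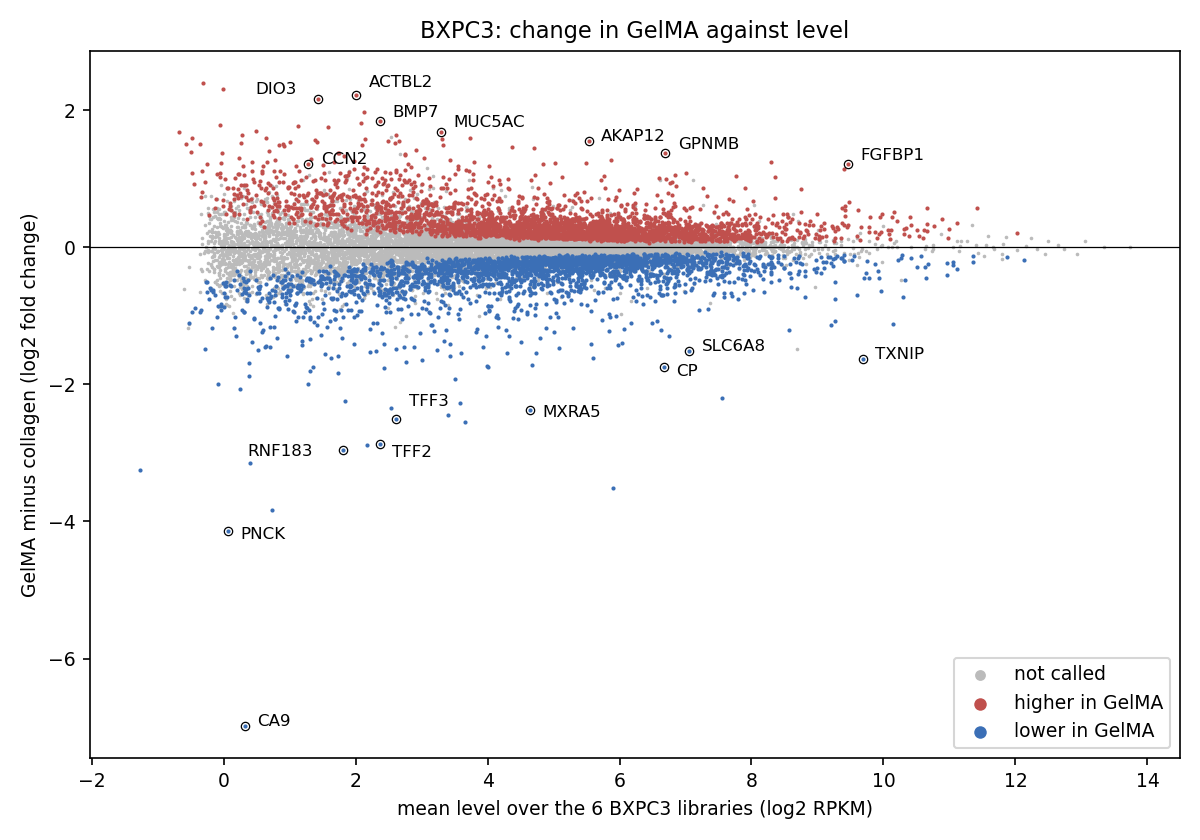
Difference between GelMA and collagen (GelMA minus collagen, log2) against the mean level over the 6 BXPC3 libraries (log2 RPKM) for 14343 genes, with called genes coloured. Changes beyond 2-fold are few (139 higher, 141 lower), and the largest is the fall of CA9, while TXNIP and FGFBP1 stand out among abundant genes.

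Among the largest falls were secreted peptides of gut-like epithelium. TFF2, TFF3 and TFF1 encode the trefoil factors, small stable peptides that mucus cells secrete with mucins and that protect and repair the epithelial surface. TFF2 was at 2.64, 2.79, 2.54 and 2.70 RPKM in GelMA, against 13.7 and 27.7 RPKM in collagen. TFF3 was at 3.58, 3.26, 3.49 and 3.42 RPKM in GelMA, against 15.2 and 24.8 RPKM in collagen. TFF1 was at 8.27, 12.02, 11.6 and 11.3 RPKM in GelMA, against 24.3 and 51.8 RPKM in collagen. In all 3 genes the GelMA libraries lay close together below both collagen libraries, and collagen replicate 2 was the higher of its pair. The falls were -2.87 ± 0.31 for TFF2 (adjusted p = 0.000108), -2.50 ± 0.21 for TFF3 (adjusted p = 2.45e-05) and -1.73 ± 0.29 for TFF1 (adjusted p = 0.00121), and all 3 stayed called whichever library was left out.

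Mucins moved in both directions. MUC2, the gel-forming mucin of intestinal goblet cells, was at 3.71, 4.59, 2.75 and 2.81 RPKM in GelMA, against 18.2 and 16.3 RPKM in collagen. Its difference of -2.35 ± 0.83 was barely called (adjusted p = 0.0472), and the call was lost when any 1 BXPC3 library was left out (adjusted p = 0.08 to 0.164). The fit shares its spread with PANC1, where MUC2 was listed at 0.00247 to 0.0427 RPKM, and in a fit of the 6 BXPC3 libraries alone the adjusted p was 0.000127. MUC5AC, the gel-forming mucin of stomach and airway surface cells, went the other way, at 11.7, 17.9, 13.3 and 15.6 RPKM in GelMA, against 2.77 and 7.28 RPKM in collagen, a rise of 1.69 ± 0.44 (adjusted p = 0.0125). Collagen replicate 2 lay between replicate 1 and GelMA, and without collagen replicate 1 the rise was 0.99 with adjusted p = 0.143. The membrane mucin MUC1 fell by 0.55 (SE 0.12, adjusted p = 0.0061), a call lost without collagen replicate 2 (adjusted p = 0.0834). Of 23 tested genes of the list of mucins, trefoil factors and classical-subtype genes, 7 fell and 1 rose, and their median was -0.24, where 17.6% of all genes fell and 20.9% rose with a median of 0.01. Without collagen replicate 2, 4 fell and 3 rose, without collagen replicate 1 0 rose, and without 5% GelMA replicate 1 2 rose. CEACAM6, a surface glycoprotein of this programme and among its most abundant members, was at 1683, 1734, 1484 and 1427 RPKM in GelMA, against 1708 and 1504 RPKM in collagen, and did not pass (difference -0.02 ± 0.17).

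Genes of glucose sensing and growth control were also among the large falls. TXNIP, an arrestin-domain protein that restrains glucose uptake and binds thioredoxin, is induced in many cell types by the glucose-sensing factors MondoA and ChREBP through a pair of E-box-like motifs. It was the most abundant protein-coding gene to fall at least 2-fold outside the hypoxia, glycolysis and cholesterol lists, at 529, 608, 589.6 and 536 RPKM in GelMA, against 1504 and 2045 RPKM in collagen. The difference was -1.63 ± 0.13 (adjusted p = 2.09e-05), and the 4 GelMA libraries stayed within a narrow band below both collagen libraries. Its paralogue ARRDC4, known to be under the same control, fell by 1.03 (SE 0.16, adjusted p = 0.000941), by 0.65 without collagen replicate 2 and by 1.41 without replicate 1. The TXNIP promoter is shown because it holds this paired element, which is rare among promoters. It covers chr1:145996530-145996829 of GRCh38.p14, on the minus strand, from RefSeq, with the match to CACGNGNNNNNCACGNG in capitals.
TXNIP: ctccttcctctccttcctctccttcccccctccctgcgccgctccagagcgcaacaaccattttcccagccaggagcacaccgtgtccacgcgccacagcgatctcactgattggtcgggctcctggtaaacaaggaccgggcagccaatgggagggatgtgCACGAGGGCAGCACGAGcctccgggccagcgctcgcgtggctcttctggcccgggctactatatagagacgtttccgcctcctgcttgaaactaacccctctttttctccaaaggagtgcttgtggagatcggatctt
The element lay 88 bases before the annotated start, and only 20 of 35116 RefSeq promoter windows of this length (0.057%) held a match on either strand. The match describes the sequence and says nothing of which factor was bound here.

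Other falls concerned growth control and energy buffering. DEPTOR, an inhibitory partner of the growth kinase mTOR, was at 1.14, 1.76, 1.89 and 1.45 RPKM in GelMA, against 4.57 and 8.15 RPKM in collagen, a difference of -2.0 ± 0.24 (adjusted p = 0.000167). SLC6A8, the creatine transporter, was at 87.4, 92.6, 96.0 and 99.0 RPKM in GelMA, against 217 and 328 RPKM in collagen, a difference of -1.51 ± 0.12 (adjusted p = 2.17e-05). In both genes each collagen library was more than 2-fold above the highest GelMA library. PNCK, a calmodulin-dependent protein kinase, was at 0.362, 0.446, 0.335 and 0.484 RPKM in GelMA, against 4.82 and 10.4 RPKM in collagen. PNCK had the largest fall outside the hypoxia list (-4.14 ± 0.28, adjusted p = 9.57e-06), and on a log2(RPKM + 1) scale, which damps low levels, it was -2.54. ADSS1, which makes the precursor of AMP in muscle and other tissues, was at 2.21, 2.46, 2.61 and 2.05 RPKM in GelMA, against 13.4 and 22.0 RPKM in collagen (difference -2.89 ± 0.18, adjusted p = 7.13e-06). IGFBP2, a binding protein that sequesters insulin-like growth factors, was at 45.3, 45.8, 46.5 and 43.1 RPKM in GelMA, against 97.0 and 150.2 RPKM in collagen (difference -1.42 ± 0.14, adjusted p = 6.69e-05). No GelMA library of these 5 genes reached a collagen library. Of 21 tested genes of the insulin and IGF list, 8 fell and 5 rose, with a median of -0.08. The adaptor IRS1, which passes on the signal of the insulin receptor, was among the 5 that rose (0.26 ± 0.05), so the list did not move in 1 direction.

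Several secreted or matrix-linked products fell as well. MXRA5, a large secreted matrix-remodelling-associated protein, was at 14.3, 14.4, 15.8 and 13.2 RPKM in GelMA, against 58.2 and 96.6 RPKM in collagen (difference -2.38 ± 0.17, adjusted p = 1.09e-05). CP, ceruloplasmin, the copper-carrying ferroxidase of plasma, was at 51.4, 76.2, 80.1 and 68.2 RPKM in GelMA, against 174 and 299.9 RPKM in collagen (difference -1.75 ± 0.20, adjusted p = 0.00015). PGF, placental growth factor, a ligand of the VEGF receptor FLT1, was at 7.97, 6.67, 7.40 and 7.34 RPKM in GelMA, against 22.5 and 34.0 RPKM in collagen (difference -1.92 ± 0.15, adjusted p = 2.19e-05). For each of the 3 the collagen libraries stood more than 2-fold above every GelMA library. H19, an imprinted long noncoding RNA, was at 57.2, 84.0, 95.1 and 87.8 RPKM in GelMA, against 136 and 279 RPKM in collagen, and its difference of -1.29 was -0.77 without collagen replicate 2. HAS3, which synthesises hyaluronan, had tight replicates, at 125, 137, 138 and 126 RPKM in GelMA, against 241 and 249.5 RPKM in collagen (difference -0.90 ± 0.05, adjusted p = 3.94e-06). RNF183, a membrane ubiquitin ligase, was at 1.47, 2.12, 1.80 and 1.76 RPKM in GelMA, against 10.1 and 18.8 RPKM in collagen (difference -2.96 ± 0.33, adjusted p = 0.000122). Further genes beyond 2-fold down by the same rule were IZUMO4, TNNT3, RIMKLA, MIR210HG, the host of the hypoxia-regulated miR-210, and KRT16P6, with differences from -2.06 for RIMKLA to -3.14 for KRT16P6, which on the log2(RPKM + 1) scale were -1.22 and -2.01. KRT16P6 is a pseudogene close in sequence to KRT16, so reads may be assigned to either copy. KRT16 differed by 0.86 ± 0.28, a call lost when any 1 GelMA library or collagen replicate 1 was left out (adjusted p = 0.0658 to 0.272).

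The rises outside hypoxia, glycolysis and cholesterol synthesis included secreted signals and scaffolds. DIO3, the deiodinase that inactivates thyroid hormone, was at 5.68, 4.72, 3.49 and 4.24 RPKM in GelMA, against 1.03 and 0.953 RPKM in collagen. BMP7, a bone morphogenetic protein ligand, was at 7.51, 9.33, 7.28 and 7.65 RPKM in GelMA, against 2.37 and 2.05 RPKM in collagen. NOG, noggin, a secreted antagonist that traps such ligands, was at 2.29, 2.07, 2.93 and 2.95 RPKM in GelMA, against 0.991 and 0.807 RPKM in collagen. Both replicates of both GelMA concentrations lay above collagen in all 3 genes, with differences of 2.17 ± 0.10 for DIO3 (adjusted p = 1.51e-06), 1.84 ± 0.09 for BMP7 (adjusted p = 2.32e-06) and 1.50 ± 0.09 for NOG (adjusted p = 4.25e-06; 0.90 on the log2(RPKM + 1) scale). AKAP12, a scaffold that holds protein kinases A and C at the membrane, was at 61.1, 64.02, 70.3 and 70.3 RPKM in GelMA, against 22.2 and 23.0 RPKM in collagen, and its replicates lay closely together (1.55 ± 0.05, adjusted p = 1.3e-07). KIAA1549, whose product is a membrane protein, and JCAD, a junctional protein known from endothelium, rose by 1.56 ± 0.09 and 1.58 ± 0.13. The polarity gene PARD3B (1.58 ± 0.21) and THSD7A, a thrombospondin-domain gene (1.60 ± 0.17), rose to a like extent.

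Abundant genes that rose by about 2-fold or more had roles in growth factor release, lysosomes and small GTPase signalling. FGFBP1, a carrier that frees fibroblast growth factors from matrix, was at 1036, 824, 914 and 971 RPKM in GelMA, against 466 and 348 RPKM in collagen (difference 1.21 ± 0.24, adjusted p = 0.00343). GPNMB, a glycoprotein of lysosome-related organelles, was at 154, 143, 132 and 139 RPKM in GelMA, against 63.9 and 47.4 RPKM in collagen (difference 1.37 ± 0.11, adjusted p = 1.96e-05). HDAC9, a class IIa histone deacetylase, was at 151, 148, 138 and 147 RPKM in GelMA, against 75.9 and 65.2 RPKM in collagen (difference 1.05 ± 0.07, adjusted p = 8.26e-06). In these 3 genes both collagen libraries were below the lowest GelMA library. RHOB, an early-response small GTPase, was at 132, 135, 137 and 149.7 RPKM in GelMA, against 70.8 and 71.5 RPKM in collagen (difference 0.96 ± 0.05, adjusted p = 2.49e-06). PHLDA2, an imprinted growth-restraining gene of placenta, and HES4, a transcriptional repressor of the hairy family, rose by 1.00 ± 0.10 and 1.02 ± 0.13.

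**Figure D2:**
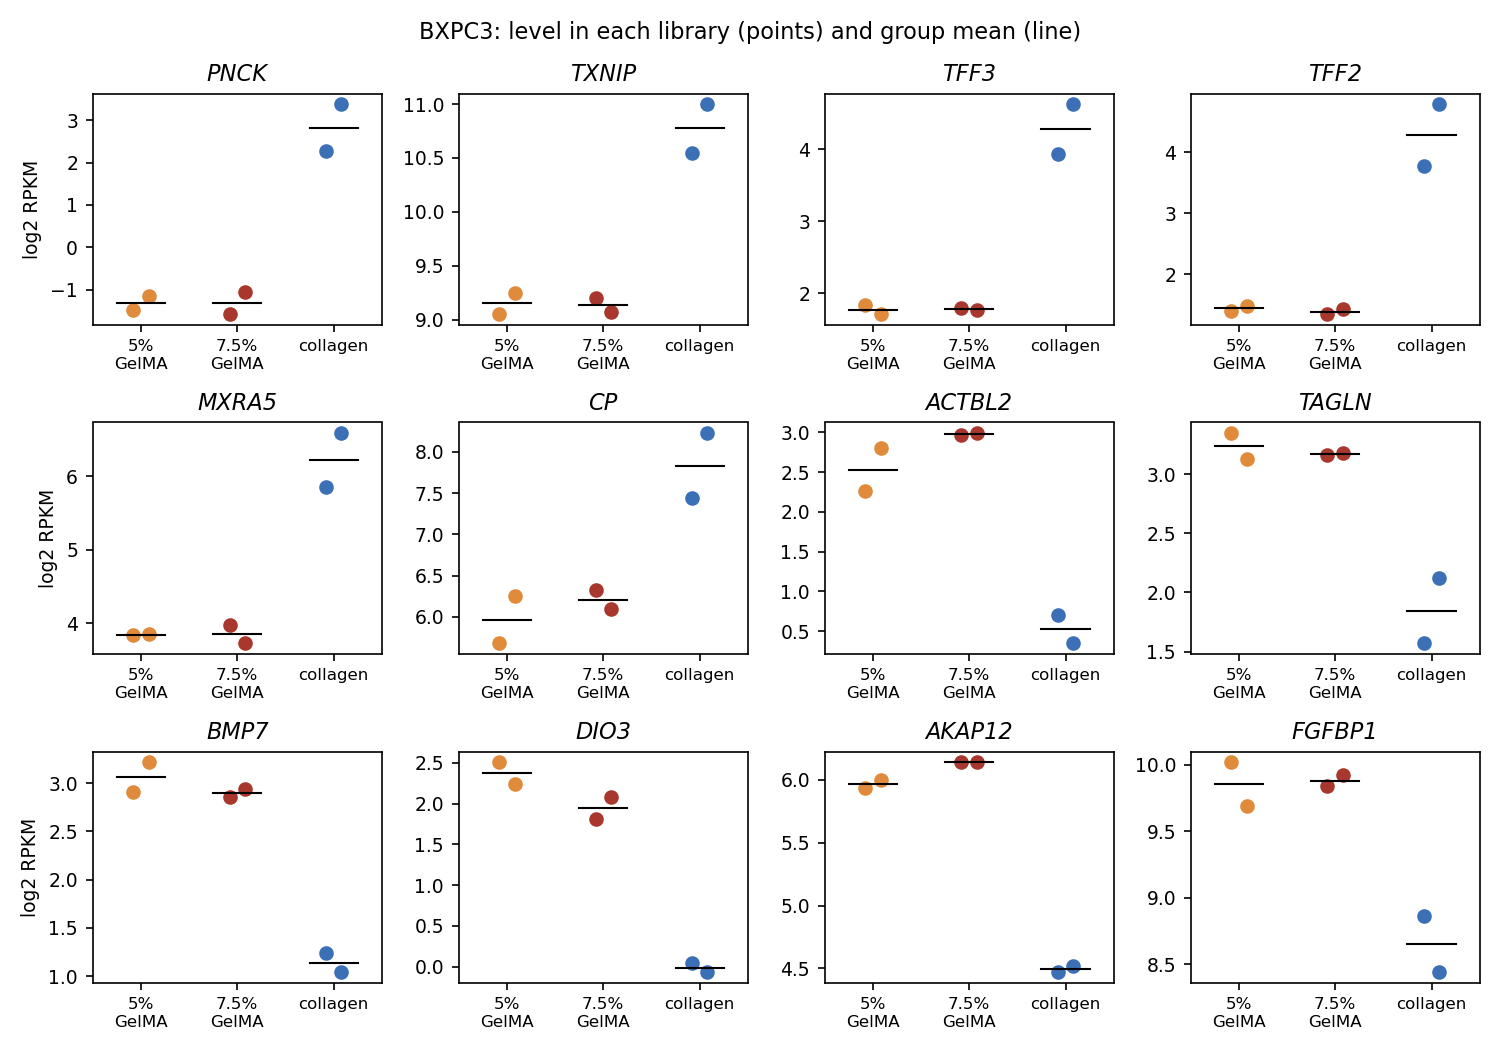
Level (log2 RPKM) of 12 genes in each BXPC3 library, as points for 5% GelMA, 7.5% GelMA and collagen, with a line at the mean of each group; the vertical scale differs between panels. The GelMA libraries lie on 1 side of both collagen libraries in each panel, and the pair of collagen libraries is spread most for PNCK, TFF2 and CP.

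Genes of contraction and of YAP signalling, known to respond to tension, changed in part. ACTBL2, a beta-actin-like gene, was at 4.79, 6.98, 7.76 and 7.96 RPKM in GelMA, against 1.64 and 1.27 RPKM in collagen. TAGLN, transgelin, an actin-binding protein of contractile cells, was at 10.2, 8.74, 8.92 and 9.08 RPKM in GelMA, against 2.97 and 4.35 RPKM in collagen. MYL9, the regulatory light chain of non-muscle and smooth muscle myosin, was at 4.49, 5.58, 4.53 and 3.97 RPKM in GelMA, against 1.92 and 1.63 RPKM in collagen. GelMA was higher without overlap in each, by 2.22 ± 0.22 (adjusted p = 6.69e-05), 1.36 ± 0.14 (adjusted p = 7.73e-05) and 1.38 ± 0.12 (adjusted p = 3.06e-05). On the log2(RPKM + 1) scale the differences of ACTBL2, TAGLN and MYL9 were 1.66, 1.15 and 1.02. The abundant cytoskeletal members moved little. Myosin heavy chain MYH9 was at 1279, 1341, 1357 and 1409 RPKM in GelMA, against 1158 and 1078 RPKM in collagen, a difference of 0.27 ± 0.05 that was called, and ACTB was at 2246, 2386, 2437 and 2437 RPKM in GelMA, against 2161 and 2291 RPKM in collagen, a difference of 0.09 ± 0.05 that was not. Of 24 tested genes of actin, myosin and SRF targets, 12 rose and 5 fell, with a median of 0.12. ACTA2, smooth muscle actin, was among the 5 that fell, at -0.62 ± 0.21, but its call was lost without either collagen library (adjusted p = 0.127 and 0.15), 5% GelMA replicate 2 or 7.5% GelMA replicate 1 (0.0979 and 0.105). The number that fell was 1 without collagen replicate 2, and 3 without collagen replicate 1 or 7.5% GelMA replicate 1.

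Of 26 tested YAP and TAZ targets, 8 rose and 6 fell, and the median was -0.03, near that of all genes. The 3 classical targets rose together. ANKRD1, an ankyrin repeat protein of stressed muscle, was at 19.6, 14.1, 11.4 and 12.8 RPKM in GelMA, against 6.16 and 4.08 RPKM in collagen. CCN2, connective tissue growth factor, was at 5.14, 3.23, 2.53 and 2.58 RPKM in GelMA, against 1.29 and 1.50 RPKM in collagen. CCN1, its matricellular relative, was at 327, 283, 243 and 256 RPKM in GelMA, against 146 and 123 RPKM in collagen. All GelMA libraries lay above both collagen libraries, and the differences were 1.50 ± 0.26 (adjusted p = 0.00151), 1.21 ± 0.14 (adjusted p = 0.000174) and 1.04 ± 0.07 (adjusted p = 8.26e-06). GADD45A, a growth arrest gene, rose by 0.75 ± 0.05, and WWC1, an upstream activator of the Hippo kinases that restrain YAP, by 0.73 ± 0.07. The receptor tyrosine kinase AXL (-0.34 ± 0.05) and the ectonucleotidase NT5E (-0.39 ± 0.06), other targets of the list, fell, and YAP1 itself was at 169, 166, 166 and 166 RPKM in GelMA, against 177 and 181 RPKM in collagen (difference -0.10 ± 0.03, adjusted p = 0.0291), a call lost when any 1 library other than 5% GelMA replicate 1 was left out (adjusted p = 0.0588 to 0.158). The promoters of CCN2 and ANKRD1 are shown because each holds more than 1 copy of GGAATG, the core that TEAD factors, the DNA-binding partners of YAP, recognise. They cover chr6:131951323-131951622 and chr10:90921038-90921337 of GRCh38.p14, both on the minus strand, from RefSeq, with each copy in capitals.
CCN2: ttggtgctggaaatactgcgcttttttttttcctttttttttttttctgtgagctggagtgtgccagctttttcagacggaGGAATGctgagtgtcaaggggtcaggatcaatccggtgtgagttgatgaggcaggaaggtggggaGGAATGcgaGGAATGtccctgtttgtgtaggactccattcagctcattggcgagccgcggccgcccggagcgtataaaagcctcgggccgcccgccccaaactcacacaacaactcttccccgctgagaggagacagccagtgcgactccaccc
ANKRD1: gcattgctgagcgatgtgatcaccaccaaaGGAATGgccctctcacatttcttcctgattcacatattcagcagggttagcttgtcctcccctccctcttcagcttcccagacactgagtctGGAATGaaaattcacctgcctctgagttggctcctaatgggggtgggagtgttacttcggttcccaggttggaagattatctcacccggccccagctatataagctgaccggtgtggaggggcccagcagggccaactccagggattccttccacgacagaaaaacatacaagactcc
CCN2 held 3 copies between 169 and 95 bases before its start, and ANKRD1 held 2 between 220 and 128 bases before its start. Among 35116 promoter windows, 14% held at least 1 copy on either strand and 1.37% at least 2. RefSeq windows were available for 5 of the 8 targets that rose, and 3 of these targets held at least 1 copy in any of their windows. That count is by gene and does not compare directly with the shares of windows.

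In the adhesion and matrix lists more genes fell than rose, but the largest changes included rises. ITGA5, the alpha subunit of the fibronectin receptor, was at 88.2, 79.4, 87.3 and 90.4 RPKM in GelMA, against 118 and 136 RPKM in collagen (difference -0.56 ± 0.06, adjusted p = 8.26e-05). ITGB4 and ITGA6, which pair as the laminin receptor of hemidesmosomes, fell by 0.35 ± 0.05 and 0.21 ± 0.04. The collagen receptor chains ITGA2 and ITGB1 did not pass, with ITGA2 at 267, 269, 299 and 270.1 RPKM in GelMA, against 257 and 251 RPKM in collagen, and ITGB1 at 632, 589.6, 608 and 618 RPKM in GelMA, against 661 and 599 RPKM in collagen. Of 17 tested integrins and receptors, 7 fell and 2 rose (median -0.12), 3 fell and 1 rose without collagen replicate 2, and 1 rose without collagen replicate 1 or 7.5% GelMA replicate 2. DAG1, dystroglycan, a laminin receptor, was one of the 2, at 0.27 ± 0.03. Among 21 collagen and laminin chains, 7 fell and 4 rose (median -0.15). COL6A1, of the beaded-filament collagen VI, was at 173, 157, 187 and 195 RPKM in GelMA, against 279 and 287 RPKM in collagen, and COL5A3, a chain of the fibril-regulating collagen V, was at 5.08, 5.77, 6.92 and 6.62 RPKM in GelMA, against 2.02 and 2.32 RPKM in collagen. Their differences had opposite signs, -0.67 ± 0.04 for COL6A1 and 1.49 ± 0.19 for COL5A3. NID2, nidogen, a linker of basement membrane in the same list, rose by 1.03 ± 0.20.

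Matrix proteases split by member. MMP7, matrilysin, a secreted protease of glandular epithelium, was at 31.4, 36.8, 40.2 and 38.6 RPKM in GelMA, against 10.3 and 17.4 RPKM in collagen (difference 1.45 ± 0.23, adjusted p = 0.000801). MMP14, the membrane-bound collagenase, was at 777, 811, 811 and 788 RPKM in GelMA, against 1046 and 1110.5 RPKM in collagen (difference -0.44 ± 0.05, adjusted p = 0.000151). The inhibitors also split, with TIMP3 lower (-0.58 ± 0.09) and TIMP2 higher (0.46 ± 0.07). Of 24 proteases and inhibitors, 7 fell and 3 rose, with a median of -0.12. The share called, 41.7%, was near the 38.5% of all genes.

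The main epithelial adhesion genes did not pass, and junction and keratin genes changed in a few members. In the keratin list 53.3% were called, and in the cornified-envelope list 43.8%, against 38.5% of all genes. CDH1, E-cadherin, was at 299, 325, 315 and 298 RPKM in GelMA, against 332 and 337 RPKM in collagen, and EPCAM at 73.3, 69.5, 62.2 and 66.6 RPKM in GelMA, against 67.3 and 60.6 RPKM in collagen, with differences of -0.11 ± 0.05 and 0.09 ± 0.06 that did not pass (CDH1 passed as lower without 5% GelMA replicate 2, adjusted p = 0.0418). Of 28 tight junction, gap junction and desmosome genes, 6 fell and 1 rose, and the median was -0.06. The share called was 25%, below the 38.5% of all genes. Without collagen replicate 2, 3 fell, and without collagen replicate 1, 5% GelMA replicate 2 or 7.5% GelMA replicate 1, 0 rose. The connexin genes GJB2 and GJB6, which form gap junctions and neighbour each other on chromosome 13, were among those that fell. GJB2 was at 102, 102, 118 and 118 RPKM in GelMA, against 147 and 204 RPKM in collagen, a difference of -0.65 ± 0.10 (-0.41 without collagen replicate 2), and GJB6 differed by -1.32 ± 0.26 (-0.72 without it). CDH3, P-cadherin, was at 145, 152, 172 and 171 RPKM in GelMA, against 216 and 247 RPKM in collagen (difference -0.54 ± 0.06, adjusted p = 0.000112). Of 15 keratins, 5 rose and 3 fell (3 rose without collagen replicate 1 or 7.5% GelMA replicate 2, 1 fell without collagen replicate 2). KRT8, of simple epithelium, was at 1209, 1236, 1046 and 1036 RPKM in GelMA, against 799.6 and 811 RPKM in collagen (difference 0.49 ± 0.08, adjusted p = 0.00112), and its partner KRT18 rose by 0.26 ± 0.05. The basal keratin KRT14 was at 5.68, 6.14, 7.33 and 8.16 RPKM in GelMA, against 12.8 and 17.3 RPKM in collagen, with a difference of -1.14 ± 0.30 whose call was lost without collagen replicate 2 (adjusted p = 0.128). SPRR1A, a precursor of the cornified envelope, was at 929.7, 891, 843 and 891 RPKM in GelMA, against 587 and 639 RPKM in collagen (difference 0.54 ± 0.07, adjusted p = 0.000214), within a list of 16 cornified-envelope genes of which 3 rose and 4 fell (2 fell without collagen replicate 2). Of the 8 tested genes of the mesenchymal list, 3 fell and 0 rose, a share called of 37.5%, and a rise was called without collagen replicate 1. Those that fell included LOX, the collagen cross-linking oxidase (-0.98 ± 0.21, and -0.53 without collagen replicate 2).

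Interferon-stimulated genes fell more often than they rose. Of 28 tested, 14 fell and 1 rose, with a median of -0.33, and 7 fell without collagen replicate 2. The restriction factors IFITM1, IFITM2 and IFITM3, membrane proteins that block virus entry, lie side by side on chromosome 11. IFITM3 was at 189, 219, 218 and 189 RPKM in GelMA, against 296 and 350.1 RPKM in collagen (difference -0.66 ± 0.09, adjusted p = 0.000299), IFITM2 differed by -0.84 ± 0.12 and IFITM1 by -0.78 ± 0.16. IFI6, an interferon-induced membrane protein, was at 642, 771, 677 and 564 RPKM in GelMA, against 963 and 1196 RPKM in collagen (difference -0.70 ± 0.11, adjusted p = 0.000829). The common reporters ISG15 and IFIT1 did not pass, with ISG15 at 95.2, 89.0, 88.1 and 74.6 RPKM in GelMA, against 85.9 and 104 RPKM in collagen, and IFIT1 at 102, 81.7, 72.3 and 63.2 RPKM in GelMA, against 82.9 and 93.7 RPKM in collagen. IFITM10, a less studied member of the IFITM family, was the 1 that rose, at 5.54, 4.85, 3.78 and 4.05 RPKM in GelMA, against 1.34 and 1.32 RPKM in collagen (difference 1.76 ± 0.10). In the class I presentation list, 5 of 16 genes fell and 1 rose, and the number that rose changed with the library left out. The share called in this list, 37.5%, was near the 38.5% of all genes, and its median was -0.03. The class I light chain B2M differed by -0.26 ± 0.06, a call lost without collagen replicate 2 (adjusted p = 0.114).

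**Figure D3:**
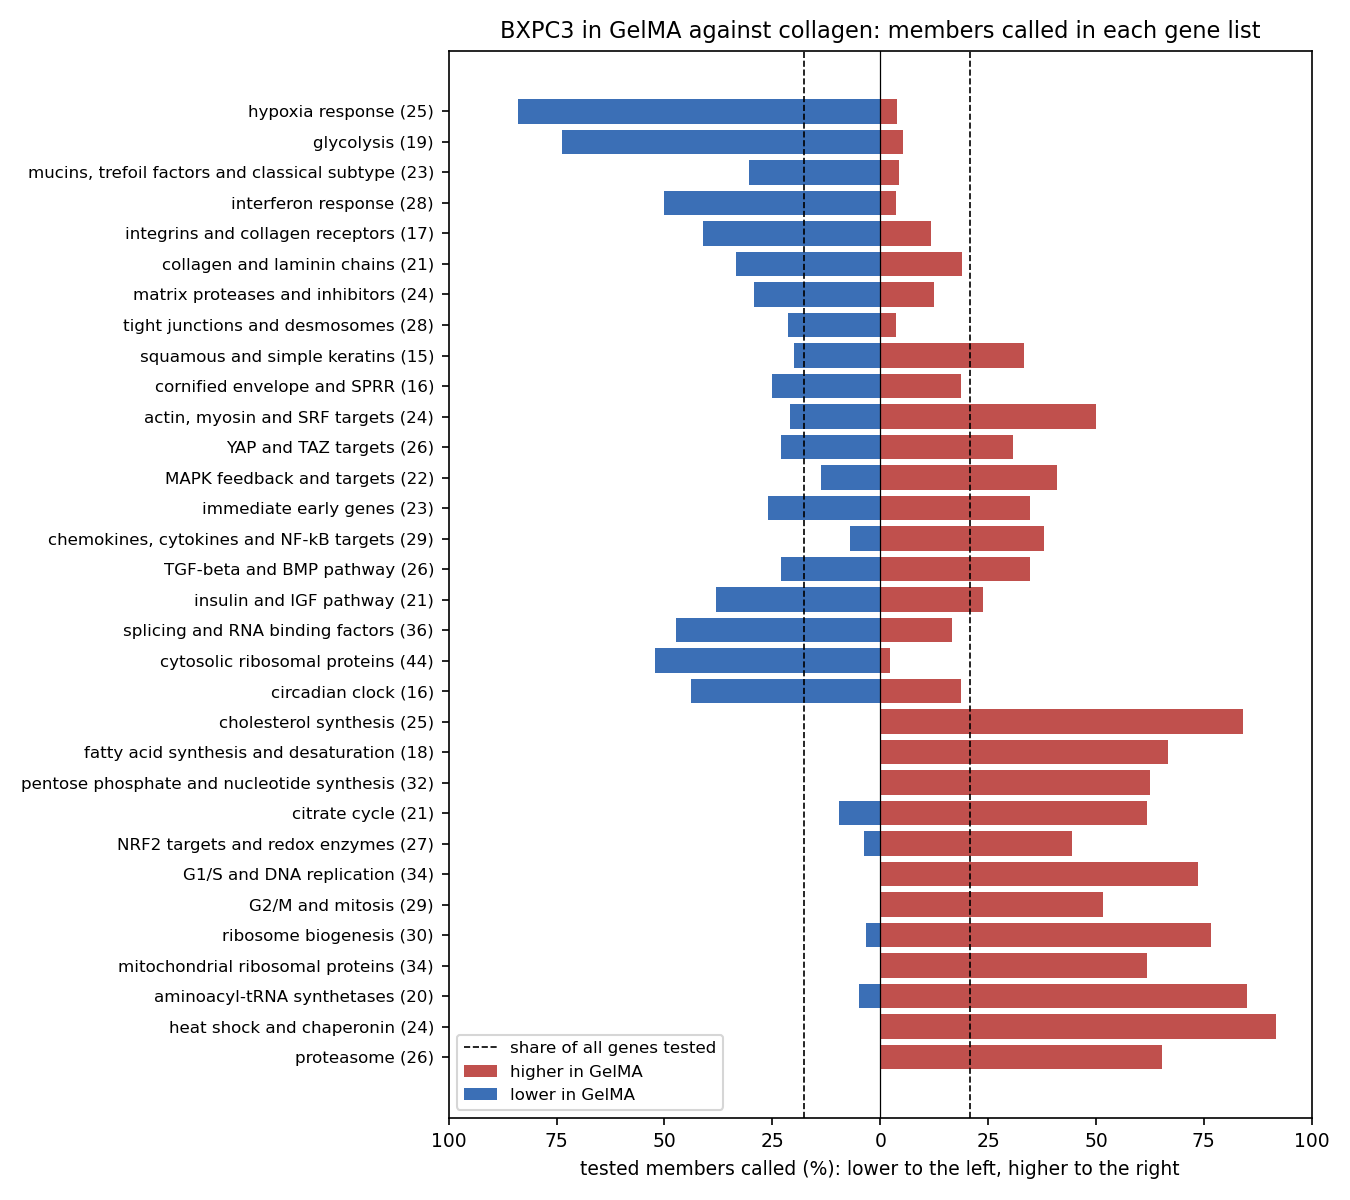
Share of the tested members of each gene list (number in brackets) called lower in GelMA (blue, to the left) or higher (red, to the right), with dashed lines at the shares of all genes tested, 17.6% lower and 20.9% higher. Heat shock and chaperonin genes (22 of 24 higher) and hypoxia response genes (21 of 25 lower) lie farthest from the dashed lines.

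The machinery of growth and protein synthesis was higher in GelMA by small, even amounts, apart from cytosolic ribosomal proteins. Of 30 ribosome biogenesis factors, 23 rose and 1 fell (median 0.30). RRS1, an assembly factor of the large subunit, was at 128, 139.8, 146 and 157 RPKM in GelMA, against 82.6 and 71.2 RPKM in collagen (difference 0.89 ± 0.06, adjusted p = 1.05e-05). Of 34 mitochondrial ribosomal proteins, 21 rose and 0 fell (median 0.19). MRPS12, of the small subunit, was at 70.5, 73.7, 75.3 and 81.1 RPKM in GelMA, against 49.1 and 48.3 RPKM in collagen (difference 0.62 ± 0.05, adjusted p = 2.06e-05). Among 20 aminoacyl-tRNA synthetases, which charge tRNAs with amino acids, 17 rose (median 0.19). VARS1, for valine, was at 53.4, 61.3, 57.7 and 63.4 RPKM in GelMA, against 45.6 and 43.4 RPKM in collagen (difference 0.40 ± 0.06). Leaving out 1 library at a time left 22 to 23, 14 to 20 and 12 to 17 rises in the 3 lists. Without collagen replicate 1, 2 biogenesis factors fell.

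Folding and turnover genes moved the same way. Of 24 heat shock and chaperonin genes, 22 rose and 0 fell (median 0.26). HSPB1, an abundant small heat shock protein, was at 1294, 1279, 1294 and 1279 RPKM in GelMA, against 929.7 and 870.0 RPKM in collagen (difference 0.52 ± 0.04, adjusted p = 1.04e-05), and CCT5, a chaperonin subunit that folds actin and tubulin, was at 439, 449.5, 454 and 489 RPKM in GelMA, against 362 and 352 RPKM in collagen (difference 0.36 ± 0.03). HSPB8, an autophagy-linked small heat shock protein, had the largest rise of the list, at 18.8, 13.5, 13.96 and 15.5 RPKM in GelMA, against 7.53 and 6.41 RPKM in collagen (difference 1.14 ± 0.16). Of 26 proteasome subunits, 17 rose and 0 fell (median 0.19; 12 rose and 1 fell without collagen replicate 2), and PSMD2, of the regulatory cap, was at 448, 418, 421 and 442 RPKM in GelMA, against 325 and 325 RPKM in collagen (difference 0.41 ± 0.03). Chaperones of the endoplasmic reticulum did not share the direction. Of 24 genes of the unfolded protein response, 5 rose and 6 fell (2 rose without collagen replicate 2 or 7.5% GelMA replicate 2), and the disulphide isomerases PDIA3 and PDIA4 differed by -0.35 ± 0.04 and -0.35 ± 0.03.

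Replication and nucleotide supply followed the growth genes. Of 34 genes of G1/S and DNA replication, 25 rose and 0 fell (median 0.24; 1 fell without 5% GelMA replicate 2), with CCNE1, cyclin E, at 12.7, 14.002, 12.8 and 13.2 RPKM in GelMA, against 8.88 and 9.74 RPKM in collagen (difference 0.50 ± 0.07, adjusted p = 0.000342). Of 29 mitotic genes, 15 rose and 0 fell, 9 rose without collagen replicate 2 and 1 fell without 5% GelMA replicate 2. AURKB, the mitotic kinase, was at 41.5, 47.5, 47.4 and 46.4 RPKM in GelMA, against 37.7 and 33.8 RPKM in collagen (difference 0.36 ± 0.06), whereas the proliferation antigen MKI67 was at 201, 234, 251 and 209 RPKM in GelMA, against 218 and 231 RPKM in collagen, and did not pass. 5% GelMA replicate 1 was the lowest GelMA library for the replication list, with a median of -0.02 against 0.11 to 0.14 in the other GelMA libraries on a scale centred on each gene. Of 32 genes of the pentose phosphate pathway and nucleotide synthesis, 20 rose and 0 fell (median 0.20; 1 fell without either 5% GelMA library). ODC1, which starts polyamine synthesis and is no member of that list, was at 59.8, 59.1, 70.9 and 74.8 RPKM in GelMA, against 35.5 and 31.3 RPKM in collagen (difference 0.98 ± 0.05, adjusted p = 1.59e-06). MYC, a growth regulator known to act on such genes, rose slightly, at 128, 122, 129.7 and 132 RPKM in GelMA, against 101.3 and 104 RPKM in collagen (difference 0.32 ± 0.03). CDKN1A, the cell cycle inhibitor p21, rose too, by 0.52 ± 0.06.

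Cytosolic ribosomal proteins and splicing regulators went the other way. Of 44 ribosomal proteins, 23 fell and 1 rose, with a median of -0.12. RPS24 was at 211, 207, 225 and 216 RPKM in GelMA, against 306 and 291 RPKM in collagen (difference -0.48 ± 0.04, adjusted p = 2.76e-05), and RPS18 was at 891, 877, 891 and 870.0 RPKM in GelMA, against 1183 and 1209 RPKM in collagen (difference -0.44 ± 0.03). The 1 that rose was RPS12, at 1027, 906, 899 and 938 RPKM in GelMA, against 788 and 755 RPKM in collagen. Its pseudogene RPS12P26 fell, at 40.6, 41.5, 51.6 and 51.6 RPKM in GelMA, against 93.1 and 92.9 RPKM in collagen, and reads of such near-identical copies may be split between them. Of 36 splicing and RNA-binding factors, 17 fell and 6 rose. CLK1, a kinase that phosphorylates serine and arginine rich splicing factors, was at 36.2, 35.5, 33.5 and 35.5 RPKM in GelMA, against 58.7 and 65.6 RPKM in collagen (difference -0.82 ± 0.05, adjusted p = 4.29e-06). The related CLK2 (-0.61 ± 0.07) and CLK4 (-0.55 ± 0.09) fell too, as did the splicing factor TRA2A (-0.49 ± 0.03). Among 16 circadian clock genes, 7 fell and 3 rose (4 fell without collagen replicate 2), including the period gene PER3 (-0.47 ± 0.06) and TEF, a clock output factor (-0.57 ± 0.08).

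Inflammatory and early-response genes rose in part. In the list of chemokines, cytokines and NF-kB targets 44.8% were called, against 38.5% of all genes. Among immediate early genes it was 60.9%, and among MAPK feedback genes and targets 54.5%. Of 29 chemokines, cytokines and NF-kB targets, 11 rose and 2 fell (1 fell without 5% GelMA replicate 1 or 7.5% GelMA replicate 1), with a median of 0.35. CXCL8, the neutrophil attractant interleukin 8, was at 110.1, 129, 123 and 127 RPKM in GelMA, against 50.02 and 73.3 RPKM in collagen (difference 1.01 ± 0.15, adjusted p = 0.000605). CXCL2, a related ligand of the same receptor, was at 25.6, 23.1, 28.1 and 24.0 RPKM in GelMA, against 10.4 and 15.2 RPKM in collagen (difference 1.00 ± 0.15, adjusted p = 0.000627). CXCL14, a chemokine of epithelium outside that list, was at 66.9, 82.7, 84.7 and 80.5 RPKM in GelMA, against 31.6 and 33.1 RPKM in collagen (difference 1.28 ± 0.30, adjusted p = 0.00779). The GelMA libraries of these 3 chemokines lay above both collagen libraries. LIF, a cytokine of the interleukin 6 family, was at 78.1, 78.3, 73.0 and 78.0 RPKM in GelMA, against 43.9 and 42.5 RPKM in collagen (difference 0.83 ± 0.04). CXCL1, a close relative of CXCL2, did not pass (adjusted p = 0.72), at 59.4, 75.2, 78.7 and 88.3 RPKM in GelMA, against 55.6 and 89.3 RPKM in collagen. It passed as higher without collagen replicate 2 (0.43, adjusted p = 0.0356), and its difference was -0.26 without collagen replicate 1. Its collagen libraries differed from each other by more than the 2 gels did. Of 23 immediate early genes, 8 rose and 6 fell (3 fell without collagen replicate 2). JUND was at 142, 128, 133 and 139.8 RPKM in GelMA, against 78.6 and 63.3 RPKM in collagen (difference 0.94 ± 0.08, adjusted p = 2.23e-05), while FOS, its partner in AP-1, was at 69.4, 77.2, 63.2 and 64.5 RPKM in GelMA, against 100.3 and 125 RPKM in collagen (difference -0.71 ± 0.09, adjusted p = 0.000321). Of 22 MAPK feedback genes and targets, 9 rose and 3 fell (1 fell without collagen replicate 2). The nuclear phosphatase DUSP1, which switches MAP kinases off, was at 44.1, 42.3, 34.9 and 36.2 RPKM in GelMA, against 25.5 and 25.4 RPKM in collagen (difference 0.62 ± 0.04), and SPRY1, a receptor kinase antagonist, differed by -0.63 ± 0.12 (-0.38 without collagen replicate 2).

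Guidance and Notch genes included single large changes. NTN1, netrin, a secreted axon guidance cue, was at 2.91, 3.99, 4.39 and 4.11 RPKM in GelMA, against 1.21 and 1.40 RPKM in collagen (difference 1.54 ± 0.12, adjusted p = 1.71e-05). SEMA6A, a membrane semaphorin, was at 5.79, 6.38, 7.48 and 7.13 RPKM in GelMA, against 14.6 and 24.3 RPKM in collagen (difference -1.50 ± 0.19, adjusted p = 0.000275). SEMA4B, the most abundant of the semaphorins named by the same rule, was at 478, 531, 546 and 518 RPKM in GelMA, against 794 and 963 RPKM in collagen (difference -0.76 ± 0.07). Netrin was thus higher in GelMA and these semaphorins lower, within a list of 28 genes of which 8 fell and 5 rose (3 rose without collagen replicate 2 or either 7.5% GelMA library). LFNG, a glycosyltransferase that tunes Notch receptors, was at 21.8, 21.8, 17.1 and 17.3 RPKM in GelMA, against 36.6 and 39.5 RPKM in collagen (difference -0.97 ± 0.06, adjusted p = 4.29e-06), and DLL1, a Notch ligand, differed by -0.77 ± 0.12. Of 13 tested genes of the Notch list, 5 fell and 2 rose, with a median of -0.06. The largest change of that list was a rise, that of HES4 (1.02 ± 0.13). In the TGF-beta and BMP list of 26 genes, 9 rose and 6 fell (5 rose and 3 fell without collagen replicate 1, 5 rose without 7.5% GelMA replicate 2). BMP7 and NOG led the rises, while ID1, a transcriptional target of BMP signalling, was lower, at 766, 899, 971 and 849.5 RPKM in GelMA, against 1264 and 1427 RPKM in collagen (difference -0.63 ± 0.08, adjusted p = 0.000222). The related ID3, of the same list, went the other way (difference 0.44 ± 0.12, adjusted p = 0.0181).

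Most fatty acid synthesis genes rose, while redox and nutrient-stress genes rose in part, and here the collagen libraries differed from each other. FASN, fatty acid synthase, was at 1057, 938, 771 and 799.6 RPKM in GelMA, against 516 and 312 RPKM in collagen (difference 1.14 ± 0.15, adjusted p = 0.000274). The FASN difference was 0.78 without collagen replicate 2 and 1.50 without collagen replicate 1. ACLY, which supplies the substrate acetyl-CoA to FASN, was at 134, 129, 132 and 133 RPKM in GelMA, against 90.8 and 77.7 RPKM in collagen (difference 0.65 ± 0.05, adjusted p = 2.06e-05). Of 18 genes of fatty acid synthesis, 12 rose and 0 fell (median 0.35), and 7 rose without collagen replicate 2. On the scale centred on each gene the list's median was 0.26, 0.06, 0.03 and 0.06 in the GelMA libraries, against -0.03 and -0.40 in the collagen libraries. Collagen replicate 2 was the low library. Lipases and droplet genes moved both ways (8 of 22 rose and 4 fell, 3 rose without collagen replicate 2 and 5 without replicate 1 of either GelMA group). LIPG, endothelial lipase, was at 28.3, 24.9, 31.5 and 31.8 RPKM in GelMA, against 11.2 and 9.79 RPKM in collagen (difference 1.47 ± 0.09, adjusted p = 4.25e-06). LPIN3, a phosphatidate phosphatase, was lower, at 25.1, 26.0, 27.0 and 26.9 RPKM in GelMA, against 45.9 and 56.7 RPKM in collagen (difference -0.96 ± 0.07, adjusted p = 1.33e-05). Of 27 NRF2 targets and redox enzymes, 12 rose and 1 fell, and 6 rose without collagen replicate 2. Their centred medians were 0.35, 0.04, -0.04 and 0.00 in GelMA, against -0.04 and -0.28 in collagen, so 5% GelMA replicate 1 stood above the other libraries. SOD2, the mitochondrial superoxide dismutase of that list, differed by 0.59 ± 0.05. SQSTM1, the autophagy receptor p62, was at 602, 511, 497 and 503 RPKM in GelMA, against 327 and 261 RPKM in collagen (difference 0.85 ± 0.09, adjusted p = 6.69e-05). Of 24 amino acid supply and ATF4 target genes, 11 rose and 2 fell (1 fell without collagen replicate 1 or 7.5% GelMA replicate 2), with TRIB3, a stress-induced pseudokinase, at 39.6, 30.3, 27.6 and 30.5 RPKM in GelMA, against 19.2 and 13.3 RPKM in collagen (difference 0.99 ± 0.13, adjusted p = 0.000361). TFRC, the transferrin receptor that takes up iron, was at 253, 304, 337 and 327 RPKM in GelMA, against 186 and 197 RPKM in collagen (difference 0.67 ± 0.06, adjusted p = 5.31e-05).

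Among nuclear genes of mitochondrial energy metabolism, rises outnumbered falls. Of 32 respiratory chain subunits, 14 rose and 2 fell (9 and 1 without collagen replicate 2, 0 fell without replicate 1), and the median was 0.08. UQCRC2, a core subunit of complex III, was far from the other members, at 43.5, 37.8, 52.4 and 40.4 RPKM in GelMA, against 17.8 and 19.1 RPKM in collagen (difference 1.23 ± 0.19, adjusted p = 0.000738). CYC1, cytochrome c1 of the same complex, differed by 0.47 ± 0.05. Of 21 citrate cycle genes 13 rose and 2 fell, but 4 rose and 1 fell without collagen replicate 2, and 1 fell without 5% GelMA replicate 1 or either 7.5% GelMA library. The 13 genes encoded by the mitochondrial genome gave 1 call in each direction (2 rose without collagen replicate 2 or 5% GelMA replicate 1, 0 fell without collagen replicate 2), and their summed level was 72411 to 72620 RPKM in GelMA and 70379 and 71870 RPKM in collagen.

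Chromatin and cell death lists held changes in both directions. KDM3A, a histone demethylase that needs oxygen and iron, was at 28.1, 30.5, 32.5 and 29.5 RPKM in GelMA, against 59.9 and 76.4 RPKM in collagen (difference -1.17 ± 0.08, adjusted p = 1.16e-05). KDM4B, an enzyme of the same kind, was at 29.6, 32.6, 33.2 and 32.1 RPKM in GelMA, against 45.8 and 57.2 RPKM in collagen (difference -0.68 ± 0.08, adjusted p = 0.000116). Of 24 demethylases and polycomb genes, 6 fell and 3 rose (fewer rose without collagen replicate 2), with a median of -0.07. The share called was 37.5%, against 38.5% of all genes. It was 47.1% among histone genes, 44.8% among death receptor and apoptosis genes and 57.1% among p53 targets. Among 17 histone genes 6 rose and 2 fell (1 fell without collagen replicate 2, 5% GelMA replicate 2 or either 7.5% GelMA library), with the H2A variants H2AX (0.72 ± 0.06) and H2AZ1 (0.54 ± 0.04) among those that rose. Of 29 death receptor and apoptosis genes, 6 rose and 7 fell (2 and 3 without collagen replicate 2, and 4 fell without 5% or 7.5% GelMA replicate 2). BCL2L1, which blocks mitochondrial apoptosis, was at 162, 146, 147 and 156 RPKM in GelMA, against 106 and 99.6 RPKM in collagen (difference 0.57 ± 0.05, adjusted p = 4.5e-05). TNFRSF10D, a decoy receptor for the death ligand TRAIL, was at 58.9, 55.7, 56.6 and 54.2 RPKM in GelMA, against 82.1 and 80.8 RPKM in collagen (difference -0.53 ± 0.05, adjusted p = 4.27e-05). Of 21 p53 targets, 8 rose and 4 fell (1 fell without collagen replicate 2, and 2 without collagen replicate 1, 5% GelMA replicate 1 or 7.5% GelMA replicate 2). GDF15, a stress cytokine, rose by 0.77 ± 0.11, while DDB2, a sensor of ultraviolet DNA damage, differed by -0.65 ± 0.06.

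Wnt, lysosomal and drug transport lists held few large changes. TCF7, a nuclear partner of beta-catenin, was at 2.91, 2.70, 3.91 and 3.42 RPKM in GelMA, against 1.80 and 1.78 RPKM in collagen (difference 0.84 ± 0.08, adjusted p = 4.54e-05), and DKK1, a secreted Wnt antagonist, was at 295, 299, 269 and 275 RPKM in GelMA, against 216 and 210.2 RPKM in collagen (difference 0.41 ± 0.03, adjusted p = 2.29e-05). Of 18 Wnt pathway genes, 4 rose and 1 fell, with a median of 0.25. The fall was lost without collagen replicate 1, 5% GelMA replicate 1 or either 7.5% GelMA library. The share called was 27.8%, below the 38.5% of all genes. It was 45.2% in the lysosome and autophagy list and 42.9% in the drug transport list. Of 31 lysosome and autophagy genes, 9 rose and 5 fell (4 rose without collagen replicate 2), and ULK1, the kinase that starts autophagy, was at 41.4, 36.1, 34.5 and 34.6 RPKM in GelMA, against 51.2 and 61.8 RPKM in collagen (difference -0.62 ± 0.08, adjusted p = 0.000231). ABCC4 and ABCC3, exporters of organic anions, moved apart. ABCC4 was at 8.16, 9.97, 11.1 and 10.6 RPKM in GelMA, against 5.79 and 6.41 RPKM in collagen (difference 0.70 ± 0.07, adjusted p = 9.68e-05), whereas ABCC3 was at 117, 116, 95.3 and 96.1 RPKM in GelMA, against 155 and 141 RPKM in collagen (difference -0.49 ± 0.05, adjusted p = 5.44e-05). Within their list of 21 drug transport and gemcitabine metabolism genes 7 rose and 2 fell (3 rose without collagen replicate 2). Of 18 epithelial and pancreatic transcription factors, 2 rose and 2 fell, a share called of 22.2%, and both counts changed with the collagen library left out. Among them were SOX9, a ductal factor (0.31 ± 0.03), and FOXA2, an endoderm factor (-0.41 ± 0.06).

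**Figure D4:**
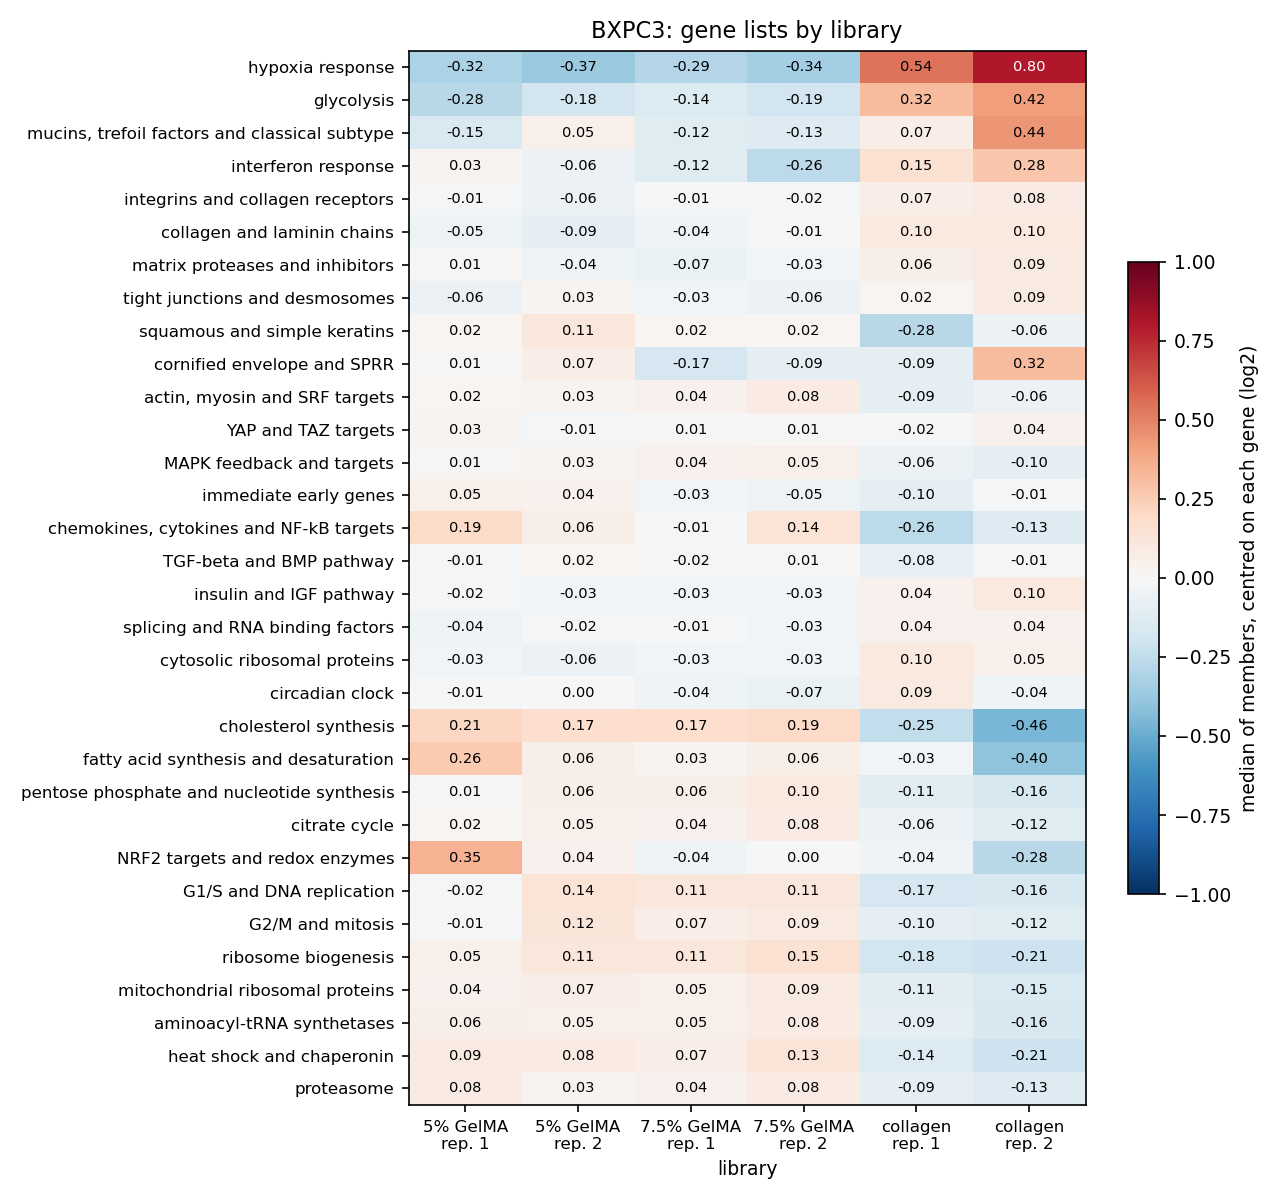
Median of the tested members of each gene list in each BXPC3 library, after each gene was centred on its mean over the 6 libraries (log2), with libraries in columns and lists in rows. Collagen replicate 2 lies farther from GelMA than replicate 1 for the hypoxia list (0.80 against 0.54) and the fatty acid list (-0.40 against -0.03), and 5% GelMA replicate 1 stands apart for the NRF2 list (0.35).

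The hypoxia, glycolysis and cholesterol lists were short, with 25, 19 and 25 tested genes, so they could hold only few of the calls. Together with all other lists they left 4830 of the 5526 called genes in no list. Of 25 hypoxia response genes, 21 fell and 1 rose (median -1.07), of 19 glycolysis genes 14 fell and 1 rose (median -0.45, 0 rose without collagen replicate 2), and of 25 cholesterol synthesis genes 21 rose and 0 fell (median 0.56). CA9, the carbonic anhydrase that marks hypoxic cells, was at 0.186, 0.327, 0.318 and 0.201 RPKM in GelMA, against 19.4 and 51.0 RPKM in collagen, and NDRG1, a stress-induced gene of the same list, was at 95.3, 109, 135 and 117 RPKM in GelMA, against 407 and 669 RPKM in collagen (difference -2.20 ± 0.16). VEGFA, the angiogenic factor, changed little, at 564, 539, 575 and 561 RPKM in GelMA, against 681 and 632 RPKM in collagen (difference -0.23 ± 0.06), a call lost without collagen replicate 1 (adjusted p = 0.0939). The hypoxia list's centred median was -0.32, -0.37, -0.29 and -0.34 in GelMA, against 0.54 and 0.80 in collagen, and the part of this shift in the other results was not tested. The CA9 promoter is shown as that of the gene that fell most. It covers chr9:35673678-35673977 of GRCh38.p14, on the plus strand, from RefSeq, and the capitals mark the hypoxia response core ACGTG read on the opposite strand.
CA9: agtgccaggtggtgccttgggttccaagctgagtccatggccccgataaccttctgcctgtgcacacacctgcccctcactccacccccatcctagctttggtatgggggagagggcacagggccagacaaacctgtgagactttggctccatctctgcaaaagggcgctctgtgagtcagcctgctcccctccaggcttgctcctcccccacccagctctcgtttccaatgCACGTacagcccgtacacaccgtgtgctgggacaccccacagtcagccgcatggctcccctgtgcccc
This core lay 18 bases before the annotated start. It occurred on either strand in 21.4% of all promoter windows. Of the 21 hypoxia genes that fell, 17 had windows available, and 12 of these genes held it in any of their windows. This count is by gene and does not compare directly with a share of windows.

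Both GelMA concentrations differed from collagen to a like degree. With the same collagen libraries as reference, 4561 genes were called for 5% GelMA (31.8%), 2483 higher (17.3%) and 2078 lower (14.5%). For 7.5% GelMA 4598 genes were called (32.1%), 2508 higher (17.5%) and 2090 lower (14.6%). Without collagen replicate 2 these counts were 2888 and 3013, and without 7.5% GelMA replicate 2 the count for 7.5% was 2533. Between 7.5% and 5% GelMA, limma called 0 genes, although 1275 (8.89%) had an unadjusted p under 0.05 and the lowest adjusted p was 0.0565. Calls appeared under other settings, 14 without the level filter, 19 without 5% GelMA replicate 2 and 6 without either collagen library. Genes among those with the lowest p are given as values. ATF3, a stress-induced transcription factor, was at 1.76 and 1.60 RPKM in 7.5% GelMA, against 3.71 and 3.23 RPKM in 5% GelMA (7.5% minus 5%: -1.04, adjusted p = 0.0565). PARD6B, a cell polarity adaptor, was at 14.4 and 14.9 RPKM in 7.5% GelMA, against 22.2 and 20.1 RPKM in 5% GelMA (-0.53, adjusted p = 0.0565). PIM1, a survival kinase, was at 50.3 and 50.8 RPKM in 7.5% GelMA, against 71.8 and 65.0 RPKM in 5% GelMA (-0.43, adjusted p = 0.0565). These 3 lay lower in 7.5% than in 5% GelMA without overlap, and their collagen libraries (2.40 and 1.93 RPKM for ATF3, 15.5 and 15.4 RPKM for PARD6B and 59.3 and 63.7 RPKM for PIM1) did not lie outside the range of the GelMA libraries. CREB5, a CREB-family factor, lay higher, at 2.72 and 3.53 RPKM in 7.5% GelMA, against 1.15 and 1.73 RPKM in 5% GelMA (1.14, adjusted p = 0.134), with collagen at 0.587 and 0.701 RPKM. CYP1B1, a target of the aryl hydrocarbon receptor, was at 73.1 and 77.3 RPKM in 7.5% GelMA, against 55.6 and 56.0 RPKM in 5% GelMA (0.43, adjusted p = 0.0949), while its collagen libraries were at 73.8 and 79.9 RPKM.

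The response of BXPC3 was compared with that of PANC1 by testing the difference of the 2 GelMA effects, BXPC3 minus PANC1, in the same fit. This difference was called in 5870 genes (40.9%), 3113 with the higher effect in BXPC3 (21.7%) and 2757 with the lower (19.2%). Of the 5526 genes called in BXPC3, 2853 (51.6%) were also called in the difference, which is 19.9% of all genes tested, and 995 were called in PANC1 (where 57.7% of genes were called) with the opposite sign. TFF3 fell in BXPC3 (-2.50) and differed by 1.13 in PANC1, a difference between lines of -3.63 (adjusted p = 9.3e-06). MYL9 rose in BXPC3 (1.38) and was at -1.21 in PANC1, a difference of 2.59 (adjusted p = 2.25e-06). BMP7 rose in BXPC3 (1.84) and was at 0.07 in PANC1, a difference of 1.78 (adjusted p = 5.38e-06). SEMA6A fell in BXPC3 (-1.50) and was at 1.76 in PANC1, a difference of -3.26 (adjusted p = 1.2e-05). The difference was thus called in these 4 genes. For MIR210HG (-2.55 in BXPC3, -2.66 in PANC1), HDAC9 (1.05 and 1.04) and CLK1 (-0.82 and -0.94) it did not pass (limma, adjusted p = 0.713, 0.936 and 0.188). That does not show that the lines act alike. Genes were kept by their level in BXPC3 only, so an effect in PANC1 may rest on low values. PANC1 levels of these genes are not given here. By list, the difference was called in 20 of 28 interferon genes with the lower effect in BXPC3 and in 2 with the higher. It was called with the higher effect in BXPC3 in 30 of 44 cytosolic ribosomal proteins, 18 of 24 amino acid and ATF4 genes, 17 of 27 NRF2 and redox genes and 16 of 20 tRNA synthetases. The reverse call numbered 0, 1, 2 and 1 in these 4 lists. For cytosolic ribosomal proteins the higher effect was by median a smaller fall, -0.12 in BXPC3 and -0.41 in PANC1. Medians in BXPC3 and PANC1 were 0.16 and -0.58 for the amino acid list and 0.23 and -0.48 for the NRF2 list. They were 0.19 and -0.43 for the synthetases, and -0.33 and 0.40 for the interferon genes.

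**Figure D5:**
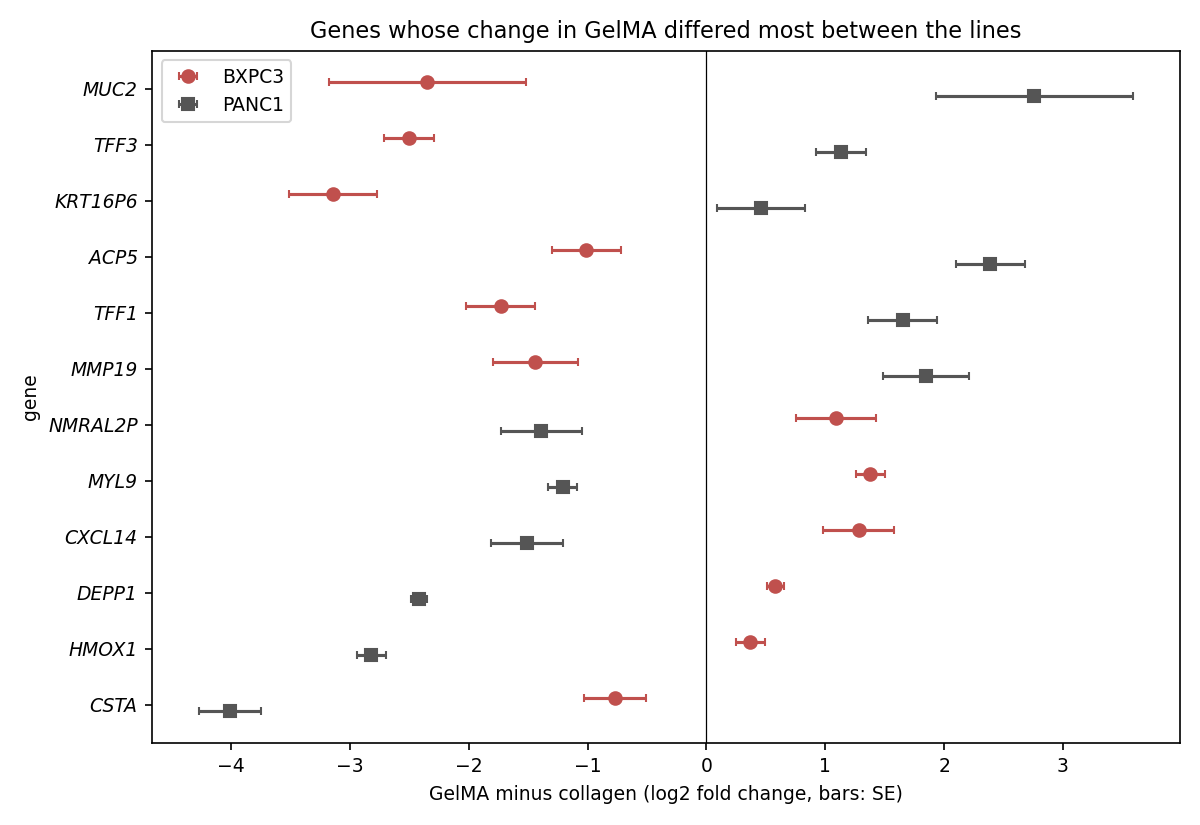
Difference between GelMA and collagen (GelMA minus collagen, log2, bars: SE from the shared fit) in BXPC3 (red circles) and in PANC1 (grey squares) for the 6 genes with the highest and the 6 with the lowest difference between lines among genes called in BXPC3. The 2 lines lie on opposite sides of 0 in 11 of the 12 genes, and CSTA is negative in both.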

How the data were processed

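Messenger RNA was measured in 12 libraries, 6 of them of BXPC3 and 6 of PANC1. The deposited values are log2 RPKM per gene in a single table of the authors. Reads were aligned with HISAT2 2.1.0 to GRCh38 (hg38) and counted with HTSeq, per the submitters' processing notes, and RNA was prepared by poly-A capture, per the labels' protocols. Across libraries the top 13758 ranks held equal values within 0.05 log2 units while the lowest 2541 did not, so the deposited log2 values carry a common distribution; absolute shifts in total RNA cannot be read from them. The annotation, strand setting and read totals are not given by the sources used here, so the depth is unknown and no counting interval is printed. Ensembl IDs were named from a table of gene names (16250) or GENCODE 29 (49), and 0 columns were left unmapped.

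Genes at 1 RPKM or more in at least 2 of the 6 BXPC3 libraries were tested with limma 3.58.1 in R 4.3.3, with a mean-variance trend, 6 group means over 12 libraries and 6 residual degrees of freedom. Contrasts were the mean of 5% and 7.5% GelMA minus collagen, each concentration minus collagen, 7.5% minus 5%, and the BXPC3 effect minus the PANC1 effect. Benjamini-Hochberg adjustment ran over 14343 genes, and every adjusted p printed comes from this limma fit or its alternatives. Levels are printed as RPKM calculated back from the log2 values. The pair of contrasts against collagen share the collagen libraries. The procedure was tested on simulated data.

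The comparison, the 64 gene lists and the tests were chosen with earlier results of these data known. Genes were named by rule: at 3 RPKM or more in a group mean, the 15 highest and 15 lowest called differences outside hypoxia, glycolysis and cholesterol synthesis, the 8 highest and lowest among genes of 100.0 RPKM or more, up to 4 called and 2 other members per list, the 8 highest and lowest for 7.5% against 5% by unadjusted p, and the 6 highest and lowest for the difference between lines. ACTB, AXL, CDH1, CEACAM6, CXCL1, EPCAM, IFIT1, IFITM3, IRS1, ISG15, ITGA2, ITGB1, MKI67, MMP14, MYC, MYH9, NDRG1, NOG, NT5E, PECAM1, PRSS1, RPS12, VEGFA, VWF, WWC1 and YAP1 were named outside it, after their values were seen. Some genes that the rule names are not reported here. Alternatives were log2(RPKM + 1), no level filter, at least 3 RPKM, the 6 BXPC3 libraries alone, leaving out each BXPC3 library and a replicate block. No pairing of the libraries by replicate number was seen.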

Additional observations from a re-analysis of the deposited data

Results flagged for a closer look

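The effect of GelMA differed between the lines. The difference of the 2 effects (BXPC3 minus PANC1), tested in the same limma fit, was called in 5870 genes.

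Genes with the lowest differences fell in BXPC3 and had a positive fitted change in PANC1. The difference was -5.11 for MUC2, -3.63 for TFF3 and -3.38 for TFF1, all secreted products of mucus cells. MUC2 was listed at 0.00247 to 0.0427 RPKM in PANC1 and was tested only because of its level in BXPC3, so its difference between lines rests on values near 0 and is no measured fold. It was -3.61 for the pseudogene KRT16P6, -3.39 for ACP5, the tartrate-resistant acid phosphatase, and -3.29 for MMP19, a matrix metalloprotease. The BXPC3 call of MUC2 was lost without any 1 BXPC3 library (adjusted p = 0.08 to 0.164), without the level filter (0.0513) and at 3 RPKM or more (0.0557). That of ACP5 was lost without collagen replicate 2, 5% GelMA replicate 1 or 7.5% GelMA replicate 1. That of MMP19 was lost without collagen replicate 2. In a limma fit of the 6 BXPC3 libraries alone ACP5 passed (adjusted p = 0.00596).

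Genes with the highest differences were lower in GelMA in PANC1. The difference was 3.23 for CSTA, the protease inhibitor cystatin A, whose difference between gels was -0.77 in BXPC3 and -4.01 in PANC1. It was 3.19 for HMOX1, heme oxygenase 1, 3.0 for DEPP1, a FOXO-regulated gene, 2.79 for the chemokine CXCL14, 2.59 for the myosin light chain MYL9 and 2.48 for NMRAL2P, a pseudogene. The last 5 were higher in GelMA in BXPC3. In a limma fit of the 6 BXPC3 libraries alone CSTA passed (adjusted p = 0.000471). Its BXPC3 call in the shared fit was lost without any 1 BXPC3 library and with a replicate block (adjusted p = 0.0688). That of HMOX1 was lost without collagen replicate 2, 5% GelMA replicate 1 or either 7.5% GelMA library (adjusted p = 0.059 to 0.347) and in the 6 BXPC3 libraries alone (0.0888). That of NMRAL2P was lost without collagen replicate 2, 5% GelMA replicate 1 or 7.5% GelMA replicate 2 (adjusted p = 0.0796 to 0.289). What these differences follow was not tested.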

How the results depend on the processing

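The split of calls in GelMA against collagen kept close to the same proportion of rises in all alternatives run. Among 168 named genes that were tested, a set without ID3, none changed sign with a call. Of 153 called genes named, 137 kept call and direction throughout, and 16 lost the call at least once, 13 without collagen replicate 2 and 8 without collagen replicate 1. Leaving out 1 library at a time gave 3473 to 5140 calls for GelMA against collagen, 2888 to 4252 for 5% GelMA, 2533 to 4655 for 7.5% GelMA and 0 to 19 for 7.5% against 5% GelMA. The lowest counts came without collagen replicate 2 for GelMA and for 5% GelMA against collagen, without 7.5% GelMA replicate 2 for 7.5% GelMA against collagen, and without 5% GelMA replicate 1 or either 7.5% library for 7.5% against 5%. For 7.5% against 5% GelMA, dropping the level filter gave 14 calls. With 1 library left in a group, its spread is taken from the other groups. Fitted with a replicate block, the comparison called 5134 genes. The difference of replicate 2 minus replicate 1, taken gene by gene, correlated at 0.16, -0.07 and -0.11 between pairs of groups. No pairing of libraries by replicate number was thus seen. With depth unknown, the precision of low values cannot be given, and 2 collagen libraries that differ from each other limit every comparison.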
